A study of Mus musculus with 6 samples.

Results

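The 7 genes of signalling by gamma-aminobutyric acid (GABA) described here were measured in the injured mouse spinal cord: Gad1 and Gad2, which make GABA, Slc6a11, which takes it up, Gabra2, Gabra3 and Gabra5, which encode alpha subunits of the GABA-A receptor, and Gabbr2, a subunit of the GABA-B receptor. They were chosen with earlier results of these data known and were taken by symbol. All 7 were found among the 37475 genes of the deposited table and among the 22114 genes with enough counts to test. The tissue was spinal cord of wild-type mice, collected on day 3 after an impactor had bruised it at thoracic level 10. Age, sex and the length of cord taken are not stated. One group of 3 mice was given phosphate-buffered saline (PBS), the vehicle, by daily intraperitoneal injection, and the other group of 3 was given syringin, a plant phenylpropanoid glucoside, at 50 mg/kg by the same route. Both groups carried the injury, and uninjured cord was not analysed here. The question the comparison addresses is how expression in the injured cord differed with syringin.

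GABA is the main fast inhibitory transmitter of the central nervous system, and in the spinal cord it acts beside glycine, restraining motor output and the relay of touch and pain signals. Inhibitory neurons make it from glutamate, load it into vesicles and release it onto GABA-A receptors, which are chloride channels of 5 subunits, and onto GABA-B receptors, which are G protein-coupled. Neurons and astrocytes then clear it through membrane transporters and break it down in mitochondria.

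In all, 4 of the 7 genes fell in the syringin group: Slc6a11, Gabra3, Gabra5 and Gabbr2, to between 41.5% and 48.6% of their PBS means in CPM (counts scaled to the size of the library). None of the 7 rose. These 4 were also those with a fold of 2 or more lower, as were 4.58% of all genes whatever their p. The synthesis enzyme genes Gad1 and Gad2 and the alpha subunit gene Gabra2 did not pass the test, at 71.7%, 57.1% and 77.9% of the PBS mean. A gene counts as changed at an adjusted p under 0.05 in edgeR's quasi-likelihood test over all 22114 genes, and by that rule 5.01% of all genes changed, 3.39% lower and 1.62% higher. The 7 log2 fold changes (syringin minus PBS) were all below 0, as were 49.1% of all genes, and ranged from -1.27 to -0.36 with a median of -1.04, where the median of all genes tested was 0.01. At an unadjusted p under 0.05, 6 of the 7 were lower, all but Gabra2 (12.1% of all genes were lower by that rule). Because the 7 were chosen with earlier results known, the shares of all genes beside them describe the set and do not test it. In bulk tissue, fewer cells of a type and less RNA per cell cannot be told apart. The labels call the 3 libraries of a group biological replicates, and the number of counts behind the 7 genes ran from 355 to 18333 per library.

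The calls depended on single libraries. Without PBS library 3, edgeR called 0 genes of the whole table, although 3449 genes and 5 of the 7 had an unadjusted p under 0.05. DESeq2 without that library called 5 of the 7 (4.04% of all genes lower). Only Slc6a11 and Gabra3 stayed called without PBS library 1 (0.954% of all genes lower), without PBS library 2 (0.723%) or without syringin library 2 (1.42%). Without syringin library 3 only Gabra3 was called (0.942%), and without syringin library 1 all but Gabra2 were (4.97%).

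Transcripts of sensory ganglia also set libraries apart, although these neurons sit beside the cord and not in it. The summed level of 10 markers of such neurons was 185, 13.4 and 11.3 CPM in PBS libraries 1 to 3 and 181, 6.39 and 68.3 CPM in syringin libraries 1 to 3. Scn10a, Scn11a and Mrgprd had 0 counts in at least 1 library. Drgx and Pou4f1 were the highest of the list in the libraries with low sums. Drgx had 6.36 and 4.92 CPM in PBS libraries 2 and 3 and 2.43 CPM in syringin library 2. Pou4f1 had 3.72, 3.17 and 1.41 CPM in these libraries. Whether these transcripts came from ganglia or from the cord was not tested. With the mean of these markers as a covariate edgeR called the 4 genes and Gad2 (6.53% of all genes lower). Among PBS library 1 and syringin libraries 1 and 3, where these markers were high, edgeR called 0 genes (1693 genes and 4 of the 7 at an unadjusted p under 0.05). Among the other 3 libraries it called Gad1, Gad2, Gabra3, Gabra5 and Gabbr2 (8.80% of all genes lower), and Slc6a11 did not pass (-1.17, adjusted p = 0.0809). Each of these subsets sets 1 library of a group against 2 of the other, and the lone library is assumed to vary like the others.

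The way of fitting mattered too. The same 4 genes were called with RLE scaling (3.42% of all genes lower), counts divided by 4 (4.87%), no filter on low counts (2.20%), limma-voom (3.39%) and the trend on gene length removed (3.21%). Gabbr2 was not called with library totals alone (3.34%) or with limma on log2(FPKM + 0.1) and log2(FPKM + 1) (2.34% and 2.42%). DESeq2 (8.09%) and the replicate number as a block (6.76%) added Gad2. The limma fits on log values use a mean-variance trend that was adopted after fits without it had been seen. Without the trend, 0 of the 7 were called on log2(FPKM + 0.1) (0.00452%) or with the length trend removed (0.0271%), and Slc6a11 and Gabra3 on log2(FPKM + 1) (2.46%).

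The RefSeq promoter windows of the 7 genes (250 bases before to 50 after the transcription start, build GRCm38.p6) are of unlike composition, although all 7 genes had negative fold changes. Here 5 are shown, so that the pair of synthesis genes can be set beside 3 of the genes that fell. Each runs 5′ to 3′, and capitals mark matches on either strand to 5 motifs. The GC box was searched as GGGCGG. The motif bound by NF-Y was searched as CCAAT, and the TATA box as TATAAA. The short form of the cAMP response element was searched as TGACG, and the E box as CACGTG.
Gad1 (chr2:70561879-70562178, forward strand): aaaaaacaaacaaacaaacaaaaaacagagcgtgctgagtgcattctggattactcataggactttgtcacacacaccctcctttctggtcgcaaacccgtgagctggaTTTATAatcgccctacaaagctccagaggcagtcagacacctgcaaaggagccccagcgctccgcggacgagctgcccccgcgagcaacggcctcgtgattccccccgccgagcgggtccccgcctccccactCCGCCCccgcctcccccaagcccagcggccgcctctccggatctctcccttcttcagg
Gad2 (chr2:22622077-22622376, forward strand): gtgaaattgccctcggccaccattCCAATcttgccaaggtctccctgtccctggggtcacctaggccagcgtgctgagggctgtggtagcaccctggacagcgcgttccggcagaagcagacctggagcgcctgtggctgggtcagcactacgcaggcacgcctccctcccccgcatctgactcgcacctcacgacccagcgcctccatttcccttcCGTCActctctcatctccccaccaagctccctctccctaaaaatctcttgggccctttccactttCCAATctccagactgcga
Slc6a11 (chr6:114130991-114131290, forward strand): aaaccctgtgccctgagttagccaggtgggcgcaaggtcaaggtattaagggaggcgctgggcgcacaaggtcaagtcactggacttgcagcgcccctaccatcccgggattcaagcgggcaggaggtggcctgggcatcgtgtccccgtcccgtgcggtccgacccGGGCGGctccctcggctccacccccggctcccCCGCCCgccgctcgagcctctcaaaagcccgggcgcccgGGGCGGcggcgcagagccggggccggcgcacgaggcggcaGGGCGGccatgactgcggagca
Gabra3 (chrX:72656870-72657169, reverse strand): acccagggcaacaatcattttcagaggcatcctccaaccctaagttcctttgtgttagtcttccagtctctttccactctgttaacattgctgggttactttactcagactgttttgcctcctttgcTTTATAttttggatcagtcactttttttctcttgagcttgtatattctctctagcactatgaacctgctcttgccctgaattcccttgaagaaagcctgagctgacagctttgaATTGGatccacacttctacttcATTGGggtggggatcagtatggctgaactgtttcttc
Gabra5 (chr7:57510010-57510309, reverse strand): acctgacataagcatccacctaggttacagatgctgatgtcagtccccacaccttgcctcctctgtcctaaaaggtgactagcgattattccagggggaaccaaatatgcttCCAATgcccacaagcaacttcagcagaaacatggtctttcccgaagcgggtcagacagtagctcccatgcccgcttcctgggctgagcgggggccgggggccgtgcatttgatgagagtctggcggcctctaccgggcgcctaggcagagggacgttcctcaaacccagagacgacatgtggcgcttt
The Slc6a11 window was 72.3% G or C with 32 CpG dinucleotides and held 4 GC boxes. Both Gabra3 windows in the table, for a pair of nearby starts, held no CpG, as did 5.43% of all 32851 windows, and were 43.0% and 39.3% G or C. Gad1 and Gad2, at 60.0% and 61.3% G or C, held 21 and 14 CpG. Over the 8 windows of the 7 genes, a GC box was found in 4 (35.7% of all windows), the NF-Y motif in 5 (37.4%), the TATA box in 3 (13.6%) and the short cAMP response element in 1 (20.8%). The 2 Gabra3 windows overlap, and by gene the NF-Y motif was found in 4 of the 7 and the TATA box in 2. The full cAMP response element TGACGTCA, which contains the short form, and the E box were found in 0 of the 8 (1.79% and 7.15% of all windows). These are matches of letters only.

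Gad1 and Gad2 encode the 2 glutamate decarboxylases: the Gad1 enzyme supplies most of the GABA of the cell, and the Gad2 enzyme is held mainly at nerve terminals. Gad1 (ENSMUSG00000070880, chromosome 2, 70392386 to 70432358 as deposited) had 66.1, 77.3 and 76.8 CPM in PBS libraries 1 to 3 and 68.0, 38.7 and 51.3 CPM in syringin libraries 1 to 3. Syringin library 1 lay above PBS library 1, so the groups overlapped. The Gad1 fold change was -0.48 ± 0.19 (log2 ± standard error, 95% interval -0.92 to -0.04, unadjusted p = 0.0353, adjusted p = 0.177). Without syringin library 1 the value was -0.71 and passed (adjusted p = 0.0277).

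Gad2 (ENSMUSG00000026787, chromosome 2, 22512217 to 22583886) had 44.7, 45.0 and 50.4 CPM in the PBS libraries and 36.2, 20.98 and 22.8 CPM in the syringin libraries. The groups did not overlap, as was so of 5 of the 7 genes. Of all genes tested, 15.3% did not overlap with syringin lower and 14.7% with syringin higher. The Gad2 fold change was -0.81 ± 0.20 (95% interval -1.27 to -0.35) and missed the threshold (adjusted p = 0.0601). It passed without syringin library 1, at -1.10 (adjusted p = 0.00752), in DESeq2 on all 6 libraries (adjusted p = 0.00253) and with the ganglion covariate (adjusted p = 0.0270). In both synthesis genes syringin library 1 was the highest of its group.

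Within each library, Gad2 was set against Gad1 as a difference of log2 CPM. That difference was -0.57, -0.78 and -0.61 in the PBS libraries and -0.91, -0.88 and -1.17 in the syringin libraries. Gad2 was thus lower relative to Gad1 in every syringin library than in any PBS library, by 0.34 on average. The exact two-sided permutation test gave p = 0.10, the smallest that 3 against 3 allows (0.20 after Benjamini-Hochberg adjustment over the 4 within-library comparisons). The difference was -0.47 within the 3 ganglion-rich libraries and -0.19 within the other 3.

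Slc6a11 encodes a high-affinity GABA transporter found mainly on astrocytes. Slc6a11 (ENSMUSG00000030307, chromosome 6, 114108202 to 114226913) had 171, 186 and 269 CPM in the PBS libraries and 84.9, 101 and 88.8 CPM in the syringin libraries. PBS library 3 was the highest of all, and the lowest PBS library still lay well above the highest syringin library. Slc6a11 fell by 1.19 on the log2 scale (standard error 0.17, adjusted p = 0.0186); the group means were 208 ± 52.8 and 91.5 ± 8.28 CPM (SD, n = 3). Removing PBS library 3 ended the call (-0.96, adjusted p = 0.0959), as did removing syringin library 3 (-1.17, adjusted p = 0.0625).

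**Figure D1:**
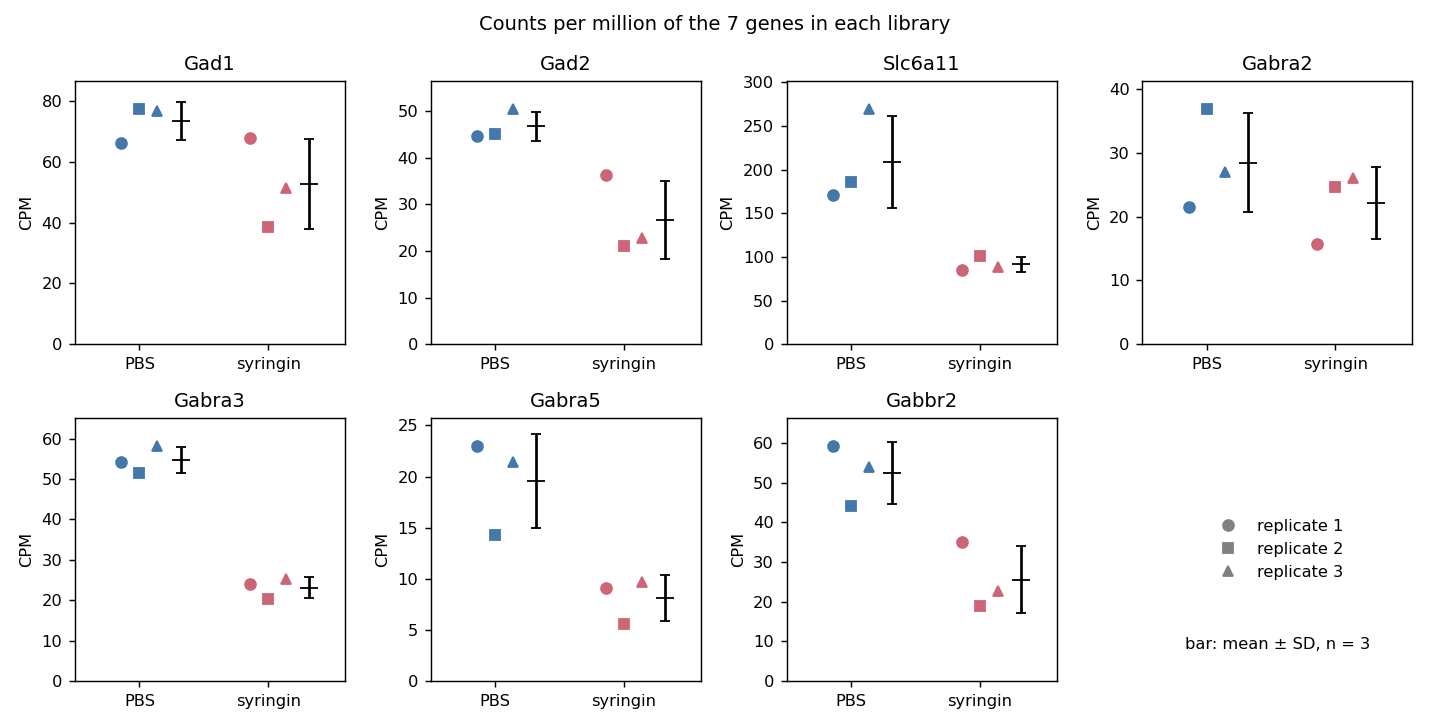
CPM of the 7 genes (vertical axes, linear from 0) in the 3 PBS libraries (blue) and 3 syringin libraries (red), with symbols for the replicate number and the mean ± SD beside the points. For Gad2, Slc6a11, Gabra3, Gabra5 and Gabbr2 every syringin library lies below every PBS library, and for Gad1 and Gabra2 the groups overlap.

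Of the 3 alpha subunit genes, Gabra3 and Gabra5 passed the test and Gabra2 did not, and the differences between them were not tested. The Gabra3 subunit forms receptors in dorsal horn and other neurons. Gabra3 (ENSMUSG00000031343, chromosome X, 71476287 to 71700454) had 54.3, 51.6 and 58.2 CPM in the PBS libraries and 23.9, 20.2 and 25.3 CPM in the syringin libraries. The lowest PBS library was more than 2 times the highest syringin library. Gabra3 fell by 1.24 (standard error 0.11, adjusted p = 0.0101), and removing PBS library 3 ended its call (-1.19, adjusted p = 0.0959) while removing any other single library did not.

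Gabra5, the subunit of receptors that lie largely outside synapses and carry tonic inhibition, was the least abundant of the 7 in CPM. Gabra5 (ENSMUSG00000055078, chromosome 7, 57057420 to 57159757) had 23.0, 14.3 and 21.4 CPM in the PBS libraries and 9.11, 5.56 and 9.68 CPM in the syringin libraries. Library 2 was the lowest of each group, and the groups did not overlap. Gabra5 fell by 1.27 (standard error 0.26, adjusted p = 0.0374), and only the removal of syringin library 1 left it called (adjusted p = 0.0596 to 0.180 without each of the other 5 libraries). The sources used here do not say whether counting used strand, so the Gabra5 values may hold reads from the opposite strand.

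Gabra2, whose subunit is found in dorsal horn and motor neuron synapses, had 21.5, 36.8 and 26.9 CPM in the PBS libraries and 15.7, 24.6 and 26.1 CPM in the syringin libraries. The groups overlapped, and library 1 was the lowest of each group. Its fold change was -0.36 ± 0.24 (ENSMUSG00000000560, chromosome 5, 71114940 to 71253192, adjusted p = 0.421), with a 95% interval from -0.92 to 0.20 that includes both no difference and a value as low as that of Gad2. Gabra2 was the only one of the 7 that passed in none of the 23 other settings tried, with values from -0.53 to -0.04.

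Gabbr2 encodes the subunit of the GABA-B receptor that couples to G proteins and carries the receptor to the cell surface. Gabbr2 (ENSMUSG00000039809, chromosome 4, 46662305 to 46991873) had 59.3, 44.1 and 54.0 CPM in the PBS libraries and 35.0, 18.8 and 22.8 CPM in the syringin libraries. Syringin library 1 came nearest to the PBS libraries, without reaching them. Gabbr2 fell by 1.04 (standard error 0.23, adjusted p = 0.0434), the weakest of the 4 calls. It was called without syringin library 1 (-1.34), and without each of the other 5 libraries it was not (adjusted p = 0.0883 to 0.189), nor with library totals alone as the scaling (adjusted p = 0.0517).

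Per transcript length, the order of the levels in the PBS group was Slc6a11 (38.3 ± 9.73 FPKM, a level scaled to transcript length and library depth), Gabra3 (12.9 ± 0.818), Gad1 (8.91 ± 0.748), Gad2 (7.37 ± 0.517), Gabbr2 (7.28 ± 1.09), Gabra5 (6.10 ± 1.46) and Gabra2 (3.45 ± 0.934; mean ± SD, n = 3). The libraries of Slc6a11, Gabra3 and Gad1 did not overlap those of the next gene, and neighbours from Gad2 down did. In the syringin group Gad1 (6.32 ± 1.92 FPKM) came before Gabra3 (5.39 ± 0.666) and Gabra2 (2.63 ± 0.624) before Gabra5 (2.49 ± 0.714). There only Slc6a11, at 16.5 ± 1.18 FPKM, stood clear of its neighbour.

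The summed FPKM of the 3 alpha subunit genes was 22.7, 21.1 and 23.7 in the PBS libraries and 10.5, 9.17 and 11.8 in the syringin libraries. Gabra3 made up 56.8%, 57.8% and 58.1% of that sum with PBS and 54.4%, 50.4% and 49.1% with syringin. It was the most abundant of the 3 in all 6 libraries, and its share was lower in each syringin library than in each PBS library. Gabra5 made up 27.0% ± 5.42 and 23.4% ± 4.70, and Gabra2 15.5% ± 5.05 and 25.3% ± 6.61 (PBS and syringin, mean ± SD, n = 3), with overlapping libraries. These shares were not tested.

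**Figure D2:**
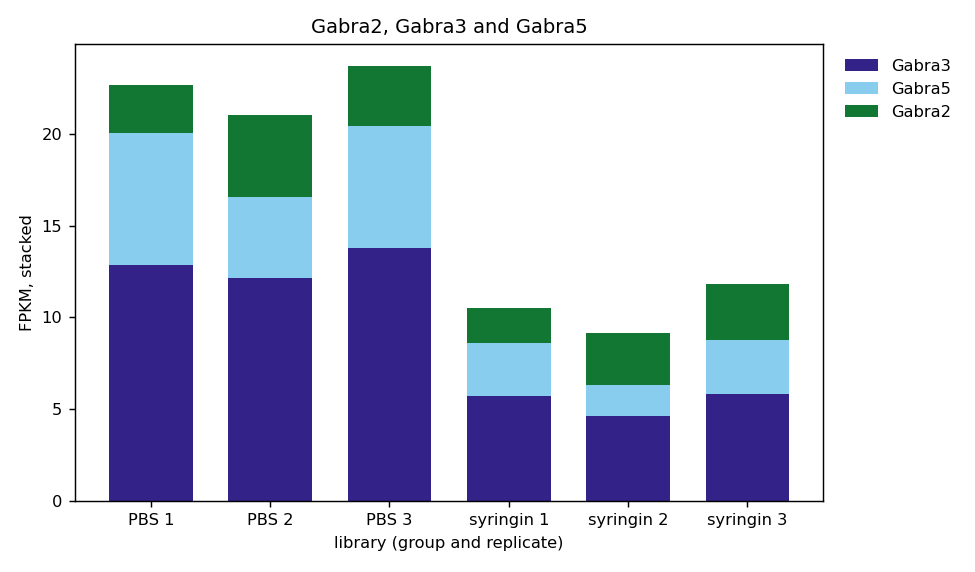
Stacked FPKM (vertical axis, linear from 0) of Gabra2, Gabra3 and Gabra5 in each library (horizontal axis). The stacks reach 21.1 to 23.7 FPKM with PBS and 9.17 to 11.8 FPKM with syringin, and Gabra3 is the largest part of each.

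The other genes of the pathway, 34 by a list of roles, were counted in the same fit. This list too was chosen with earlier results of these data known. Gabra6 is not in the table, and Gabrp, Gabrr1 and Gabrr3 had too few counts to test. Of the 30 tested, 11 fell, none rose and 19 did not pass, where 3.39% of all genes fell and 1.62% rose. The median fold change of the 30 was -0.64, and that of all genes tested was 0.01. The vesicular transporter gene Slc32a1, which loads GABA and glycine into synaptic vesicles, fell from 62.4 ± 2.11 to 27.7 ± 4.66 CPM (-1.17 ± 0.13, adjusted p = 0.0114). Both breakdown enzyme genes fell: Abat, the GABA transaminase, had a fold change of -0.91 ± 0.12 and Aldh5a1, which oxidises the product, of -0.62 ± 0.13.

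Among other receptor genes, Gabrb1, a beta subunit gene of the GABA-A receptor, fell by 0.64 (standard error 0.14), from 55.1 ± 8.43 to 35.5 ± 4.03 CPM. Gabrg3, a gamma subunit gene, had a value of -0.03 ± 0.25, with 12.7 CPM in syringin library 1 as the highest of the 6. Gabra4 did not pass (-0.56 ± 0.25), nor did the 4 tested genes of rarer subunits. Gabbr1, which binds the ligand in the GABA-B receptor, fell by 0.50 (0.11, adjusted p = 0.0457), and the 3 auxiliary subunit genes did not pass.

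At the inhibitory postsynapse, the exchange factor gene Iqsec3 fell by 1.00 (standard error 0.20). Gphn, which encodes the scaffold gephyrin, went from 52.2 ± 2.82 to 44.5 ± 3.22 CPM (-0.23 ± 0.09, adjusted p = 0.182). Slc12a5, the chloride exporter of mature neurons on which the inhibitory action of GABA depends, fell by 1.20 (0.14, adjusted p = 0.0114). The chloride importer gene Slc12a2 was the only one of the 30 with a positive fold change, at 0.19 ± 0.09 (adjusted p = 0.239), with 223 to 245 CPM in the PBS and 248 to 273 CPM in the syringin libraries.

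**Figure D3:**
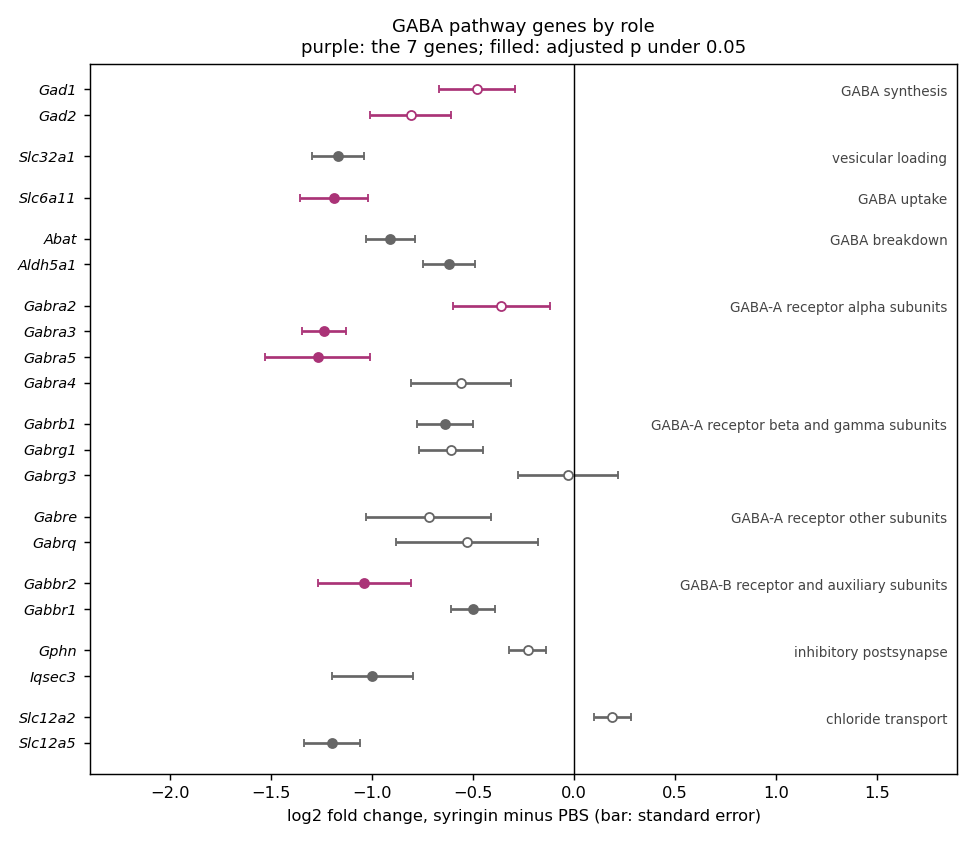
Log2 fold change, syringin minus PBS (horizontal axis, bars are standard errors), of 21 GABA pathway genes, grouped by role. Purple marks the 7 genes followed here and filled symbols an adjusted p under 0.05. All but Slc12a2 lie below 0.

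Several of the 7 genes lie beside related genes. Gabra2 lies on chromosome 5 with Gabrg1, Gabra4 and Gabrb1 at 115, 474 and 562 kb, and these had values of -0.61 ± 0.16, -0.56 ± 0.25 and -0.64 ± 0.14, of which only Gabrb1 passed (adjusted p = 0.0430). Gabra5 lies 20 kb from Gabrg3 on chromosome 7, where the values were -1.27 and -0.03. Gabra3 lies between Gabre and Gabrq on the X chromosome (158 and 168 kb), and neither of these passed (-0.72 ± 0.31 and -0.53 ± 0.35). Differences between neighbours were not tested. The submitters' processing notes name GRCm38 (mm10), but of the 7 genes only Gabbr2 has the same start in a GRCm38 annotation, so the build of the deposited positions is uncertain.

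Cell type markers moved in the same libraries. Of 16 general neuron markers 9 fell and none rose (median -0.78), with a summed level of 4710 to 5910 CPM in the PBS and 2530 to 3890 CPM in the syringin libraries. Of 14 astrocyte markers 7 fell and none rose (median -0.59; 5820 to 6590 and 3940 to 4470 CPM). Of 12 markers listed for infiltrating macrophages 6 rose and none fell (median 1.08, with 5210 to 6270 and 7430 to 18300 CPM). A large part of these sums was Spp1, with 2530 to 3380 CPM in the PBS and 3620 to 10300 CPM in the syringin libraries. Ccr2, Ly6c2, Fn1 and Gpnmb overlapped between the groups, and the other markers of this list did not. None of 10 oligodendrocyte markers passed (median 0.07; 19600 to 21500 and 18800 to 25700 CPM), and no marker of these 4 lists was at 0 in any library. Some of these markers were listed with their change already known. Syringin library 2 had the lowest neuron mean and the highest macrophage mean, and 5 of the 7 genes were lowest there, all but Slc6a11 and Gabra2, which were lowest in syringin library 1. The part of these cell types in the results was not tested.

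**Figure D4:**
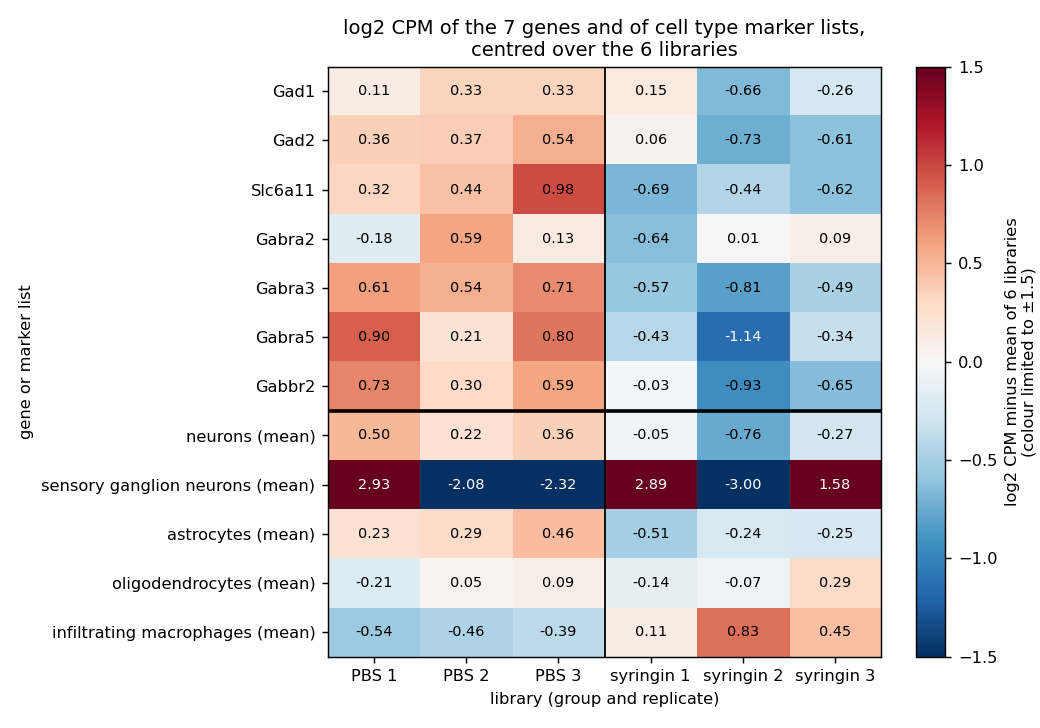
Log2 CPM of the 7 genes (above the line) and the mean of each marker list (below it), minus the mean of the 6 libraries (columns). The values in the cells are those plotted, with colour limited to ±1.5. The neuron mean runs from 0.50 in PBS library 1 to -0.76 in syringin library 2, and the ganglion mean divides the libraries otherwise than by treatment.

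Set against the neuron markers of the same library, the mean of the synthesis genes did not differ detectably between the groups. The mean log2 CPM of Gad1 and Gad2 minus that of the 16 neuron markers was -2.17, -1.76 and -1.83 in the PBS libraries and -1.74, -1.84 and -2.07 in the syringin libraries. The groups overlapped, and the difference was 0.04 (exact two-sided permutation p = 0.70, adjusted over 4 comparisons 0.70). Its sign was not fixed. It was 0.26 within the 3 libraries rich in ganglion transcripts and -0.04 within the other 3, with 1 library against 2 in each and no test. It was -0.09 without PBS library 1, -0.03 without syringin library 1 and -0.07 with the median of the markers in place of the mean. Taken singly against the neuron markers, Gad1 was higher by 0.20 with syringin and Gad2 was lower by 0.13. The groups overlapped for both, and these single values were not tested.

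The 4 receptor genes Gabra2, Gabra3, Gabra5 and Gabbr2 stood at -2.78, -2.60 and -2.59 against the neuron markers in the PBS libraries and at -3.16, -2.75 and -2.88 in the syringin libraries. The difference was -0.27, with overlapping groups (exact two-sided permutation p = 0.20, adjusted 0.27). The 3 lowest values were those of the libraries rich in ganglion transcripts, PBS library 1 and syringin libraries 1 and 3. Within these 3 libraries the difference was -0.23 and within the other 3 it was -0.16, again with no test. Of the 16 neuron markers, Tubb3 and Uchl1 were higher in each ganglion-rich library than in each other library. Without those 2 markers the difference was -0.18 for the receptor genes and 0.13 for the synthesis genes (exact two-sided permutation p = 0.20 and 0.40). The mean joins unlike genes: relative to the neuron markers Gabra3, Gabra5 and Gabbr2 were lower by 0.53, 0.56 and 0.36 without overlap between the groups, and Gabra2 was higher by 0.36 with overlap. The share of all genes without overlap was not computed for this measure. In plain CPM it was 15.3% with syringin lower and 14.7% with syringin higher. Against the astrocyte markers the groups overlapped for Gabra5 (-0.62), Gabbr2 (-0.42) and Gabra2 (0.30), and not for Gabra3 (-0.59). These single values were not tested.

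Slc6a11 minus the mean of the 14 astrocyte markers was -0.28, -0.22 and 0.14 in the PBS libraries and -0.55, -0.58 and -0.75 in the syringin libraries. Every syringin library was below every PBS library, by 0.50 on average (exact two-sided permutation p = 0.10, the smallest possible, adjusted 0.20). The difference was -0.37 without PBS library 3, -0.37 within the ganglion-rich libraries and -0.53 within the other 3. The astrocyte mean joins unlike genes, so the difference depends on the markers listed. Of the 14 markers, 13 had a fold change below 0. Slc1a2 had a fold change of -1.0 ± 0.13 and Sox9 of 0.09 ± 0.13, where Slc6a11 had -1.19 ± 0.17. Slc6a11 was not tested against single markers.

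**Figure D5:**
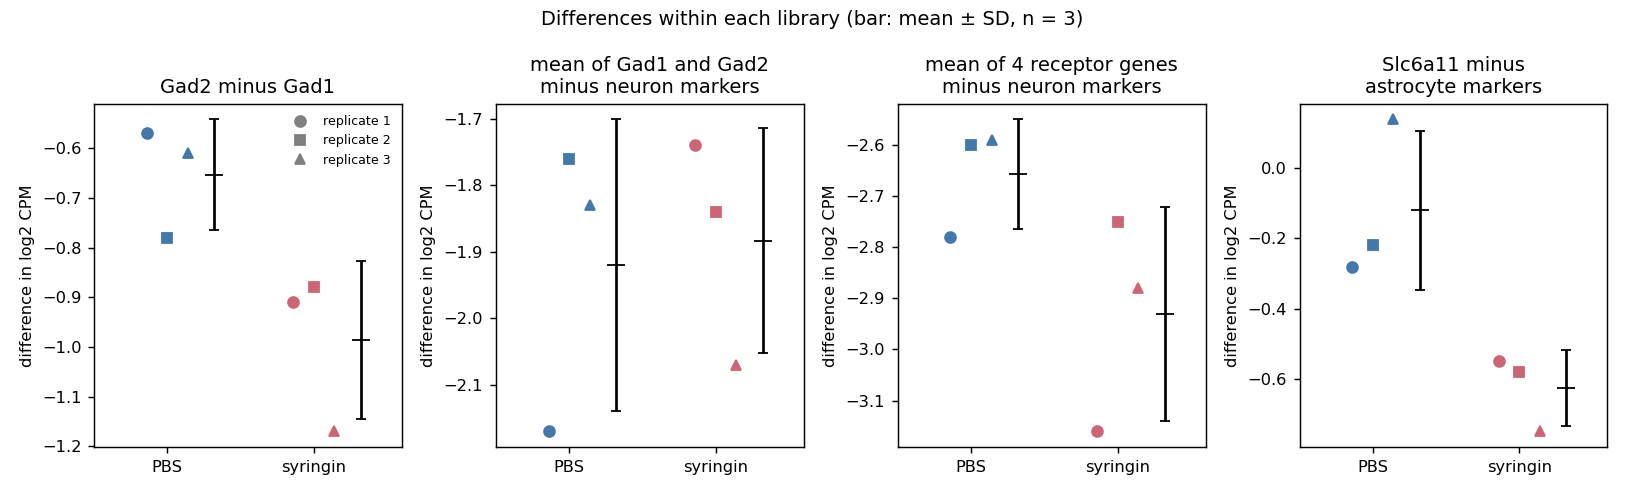
Differences in log2 CPM within each library (vertical axes, not starting at 0) for the 4 comparisons, with the mean ± SD beside the points. Gad2 relative to Gad1 and Slc6a11 relative to astrocyte markers do not overlap between PBS and syringin, and the other comparisons do.

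The genes most like each of the 7 over the 6 libraries were found by the root mean square difference of centred log2 CPM, among 12540 genes whose mean was at least 5 CPM. For Gabra3 they were the chloride exporter gene Slc12a5, Unc80 and Rgs6, at 0.07 to 0.08, where the median over all these genes was 0.67. For Slc6a11 they were Dgkb, the transcription factor gene Hlf and Slc1a2, the main astrocyte glutamate transporter gene (0.11 to 0.15, median 0.65). The nearest to Gad2 were the presynaptic adhesion gene Nrxn3, Diras2 and Bmper (0.05 to 0.09), and to Gad1 Vat1l, Mpped2 and Porcn (0.08 to 0.10). Gabbr2 had Rwdd2a, Ank1 and Zmat4 nearest (0.02 to 0.07), Gabra5 had Silc1, Fmo2 and Panx2 (0.04 to 0.14) and Gabra2 had Lims2, Sema5a and Kctd4 (all 0.09). All points share the same 6 libraries, and likeness here is a description of their levels only.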

How the data were processed

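TRIzol was used for the RNA and a stranded mRNA kit for the libraries, per the labels' protocols. Per the submitters' processing notes, the tools were HISAT2 and StringTie, on GRCm38 (mm10); no versions are given. The authors deposited 1 table that holds, for every gene in each library, an estimated count and its FPKM. The deposited estimated counts are whole, so rounding left them as they were. They sum to 65579117 to 78843034 per library. Small counts pile up at multiples of 4 (the value 4 is 1.51 times as frequent as its neighbours), so a fragment may add about 4 counts and counting error may be larger than the totals imply. No pair of libraries of 1 group was identical (chi-square over degrees of freedom 28.7 to 133.5, and 8.5 to 40.3 after division by 4).

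After filterByExpr (at least 10 counts, 15 in total) and TMM scaling (factors 0.9655 to 1.0292), edgeR 4.0.16 in R 4.3.3 fitted a robust quasi-likelihood model of treatment alone, with Benjamini-Hochberg adjustment over 22114 genes. p-values are two-sided. Standard errors were derived from the fold change and F, and log2 CPM has a prior count of 2. The same test was also run on simulated counts, whose outcome is not reported here, so nothing is drawn from that run. DESeq2 1.42.0 and limma 3.58.1 (limma-voom, and limma with a mean-variance trend on log2 values) were alternatives. The limma fits on log values were first run without that trend; they called 1 gene on log2(FPKM + 0.1), 739 on log2(FPKM + 1) and 8 with the length trend removed. The trend was adopted after these counts were seen, and both versions are given. Python 3.11.15, scipy 1.17.1 and matplotlib 3.10.9 were used for tables, permutation tests and figures.

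The 7 genes and all lists were chosen with earlier results of these data known. Every member is named. Other pathway genes are counted by role, the called ones are named with up to 8 of the rest, except some that are not reported here, and for each member the 3 genes of the smallest root mean square difference are named, leaving out predicted and clone names. For each gene, the deviation of a library from its group mean in log2 CPM was taken. Correlations of these deviations over genes, PBS against syringin, were 0.29, 0.12 and 0.05 for same-numbered libraries. They ran from -0.23 to 0.14 for the other pairs. Deviations within a group constrain one another, so these correlations are not independent and do not measure how alike the levels of 2 libraries are. The replicate number was not used to pair samples in the main fit. Whether the numbers mark something shared by the groups was not tested.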

Additional observations from a re-analysis of the deposited data

How the results depend on the processing

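All 7 fold changes were negative in each of the 23 other settings. Leaving out 1 library gave 0 to 6 members, 0 to 11 other pathway genes and 0 to 1944 genes in all. Within the 3 libraries rich in ganglion transcripts these counts were 0, 0 and 0, and within the other 3 they were 5, 19 and 3820. These 2 splits, DESeq2 without PBS library 3, the fits without a variance trend and the neuron list without Tubb3 and Uchl1 were added after seeing the data. Of all genes, DESeq2 called 3191, the ganglion covariate 2614, log2(FPKM + 0.1) 707 and log2(FPKM + 1) 715, and the last called 7 other pathway genes. Without the variance trend, log2(FPKM + 0.1) called 1 gene, 0 members and 0 other pathway genes, log2(FPKM + 1) 739, 2 and 6, and removal of the length trend 8, 0 and 0. The trend was adopted after these counts were seen. The cause was not tested. With the replicate number as a block edgeR called 2557 genes, among them Gad2 (-0.85, adjusted p = 0.0302). Correlations of deviations from the group mean were 0.29, 0.12 and 0.05 for same-numbered libraries. By this measure PBS library 3 correlated best with syringin library 2 (0.14). Whether the numbers mark something shared by the groups was not tested.

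Of the within-library differences, Gad2 against Gad1 ran from -0.47 to -0.19, the receptor genes against neuron markers from -0.38 to -0.16 and Slc6a11 against astrocyte markers from -0.62 to -0.37 over the settings. The synthesis genes against neuron markers changed sign, at -0.07 with the marker median, -0.04 within the 3 libraries poor in ganglion transcripts and from -0.09 to 0.13 with 1 library left out. With 3 against 3 libraries, no such comparison could reach p under 0.10. Gabra5, with 355 counts in syringin library 2, was the member with the fewest counts.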
